A study of Oryza sativa with 2 samples.

Results

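MicroRNAs of rice that fall outside 19 well-studied families were followed through their cleavage sites in the mesocotyl, the stem-like organ that lifts a grass seedling towards the soil surface. Of 2064 cleavage sites with reads, 258 (12.5%) were paired with at least 1 mature miRNA and with no small RNA of miR156, miR159, miR160, miR164, miR165, miR166, miR167, miR169, miR171, miR172, miR319, miR393, miR396, miR397, miR408, miR528, miR529, miR535 or miR1861. A site is 1 cut position on 1 transcript. The p-value that the authors deposited for the pair was at most 0.05 in at least 1 library at 8 of the 258 (3.10%). The 258 sites lay on 251 transcripts of 113 genes and came from 297 pairs with 60 small RNAs of 45 families. They are called here the sites of less conserved miRNAs, although 9 of the 45 families (miR157, miR162, miR168, miR390, miR394, miR395, miR398, miR399 and miR827) are widely shared among flowering plants. These 9 held 32 sites of 13 genes, and the remaining 36 families held 226 sites of 100 genes.

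The study holds 2 degradome libraries of mesocotyls from the indica cultivar P25. One is from seedlings that had 1 h of light after 5 days of darkness (L_1h, the light library), and the other is from seedlings kept in darkness for 5 days (D_5d, the dark library). Degradome sequencing reads the 5′ ends of uncapped RNA fragments, so a transcript cut by a small RNA gives reads that start at the cut. With 1 library per condition no difference between conditions could be tested, and every interval below covers counting error only. The library totals behind the deposited values were 34051452 reads in light and 15422946 in the dark, so 1 unshared read stood for 29.4 TPB in the light library and 64.8 TPB in the dark library. TPB is the deposited signal, in which reads at a position are divided by their matching places and scaled to the size of their library. Transcript levels, tissue markers among them, were not analysed here, so fewer cells with a transcript, less of it per cell and less cutting of it cannot be told apart.

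In plants a miRNA guides an Argonaute protein to a nearly complementary stretch of a transcript, which is then cut between the bases that face bases 10 and 11 of the miRNA. Families that are old and shared by many plants tend to have strong, well-paired targets, often transcription factors. Younger families are often restricted to grasses or to rice, are less abundant and many of them have no target of known function. Some families that regulate the small RNA pathway itself also belong here, with miR162 pairing to DCL1 and miR168 to AGO1.

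The small RNAs below are those of the genes in category 0, of those with 10 or more reads and of the known rice targets DRM2 and SPX genes, as deposited in DNA letters and written 5′ to 3′. Capitals mark the seed, bases 2 to 8. Names that end in L, R or ss codes are the depositors' labels for variants that differ from the named miRNA at the ends or at single bases.
osa-miR1425-5p: tAGGATTCaatccttgctgct
osa-miR1425-3p: cAGCAAGAactggatcttaat
osa-miR162a: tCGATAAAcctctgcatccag
osa-miR162b: tCGATAAGcctctgcatccag
aly-miR168a-5p: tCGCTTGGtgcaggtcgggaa
bdi-miR168-5p_R-1_1ss14AG: tCGCTTGGtgcaggtcggga
osa-miR820a_R+1: tCGGCCTCgtggatggaccagg
osa-miR818a_L+2_1ss7CA: aAAATCACttatattatgggacgg
osa-miR818a_L-1R+3_1: aTCCCTTAtattatgggacggagg
osa-miR818a_L-1R+3_2: aTCCCTTAtattatgggacggatg
osa-miR5827_1ss17CA: tTTGTTGCaatttggaatacc
osa-miR5827_2ss10AC18TC: tTTGTTGCactttggaccacc
osa-miR827: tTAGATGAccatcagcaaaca
osa-miR1871_R-6: aTGGCTCTgatatcatgt
osa-miR3979-5p: tCTCTCTCtcccttgaaggc
osa-miR5144-3p_L+2R-2: aGTCTCCTcagcagcacaaga

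Among the 60 small RNAs 45 carried rice names and 15 the names of other species. Their lengths spread from 18 to 24 nt, with 34 of 21 nt and 8 of 24 nt, and 45 of 60 were 20 to 22 nt long. Thymine, standing for uracil, was the first base of 35. In the listed families 87 of 97 small RNAs with reads were 20 to 22 nt long and 61 of 97 began with it. The 60 held 54 different seeds, 6 of which were each shared by a pair of small RNAs, and no seed was shared with a small RNA of the listed families. Both miR5827 variants above carry 1 seed, and so do both miR818a_L-1R+3 forms.

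A group of 5 small RNAs of 18 nt took 56 sites of 28 genes, and 3 of these, printed next, end in the same 4 letters, GCCA.
osa-miR5072_L-4_1ss12CT: tCCCCAGTggagtcgcca
bdi-miR5054_1ss11CG: tCCCCACGgtgggcgcca
ath-miR8175_L-2_1ss3TA: aCCCCGGCaacggcgcca
Sites of the 18-nt small RNAs were poorly paired. The alignment score, a mispairing penalty from 0 to 4, was 4 at 39 of the 56 sites (69.6%), none was in category 0, and 10 had reads in both libraries. Sites of 24-nt small RNAs were better paired, with score 4 at 7 of 39 (17.9%) and category 0 at 4. Category 0 marks, by common usage, the single highest position of a transcript.

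The sites in category 0 in both libraries were those of 4 Rf1 genes, which encode pentatricopeptide repeat proteins. In rice, Rf1 restores fertility to plants with cytoplasmic male sterility by processing a mitochondrial RNA, and miR1425 is a known regulator of the family. The copies ZS10g0388800 (position 1213), ZS10g0391000 (position 1319), ZS10g0391100 (position 1204) and ZS10g0391200 (position 1204), each held a site of miR1425-5p with score 2.5. Each was listed with 39 raw reads in the light library and 20 in the dark library. These are 1 set of reads that match all 4 copies, and the authors divided them to 9.75 normalized reads per copy in light and 5 in the dark, or 286 and 324 TPB. Which copy was cut therefore cannot be told apart. The site was in category 0 in both libraries, with the authors' deposited p-value at 0.0349 in light and 0.0304 in the dark. Light over dark was 0.883 (95% interval 0.503 to 1.60), the same as the median of all genes with reads in both libraries, 0.883. The 4 copies are themselves among those genes, so the 2 values are not independent. Together the 4 copies held 1145 TPB in light and 1297 TPB in the dark, which is 12.2% of the light and 13.6% of the dark TPB at sites of less conserved miRNAs.

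Of 13 listed pairs of miR1425-5p with transcripts carrying the symbol Rf1, 6 had reads. Beyond the 4 copies, ZS10g0392800 had 1 light read. The other arm of the same hairpin, miR1425-3p, was paired with GLYI-11 (ZS08g0116200), named for glyoxalase I, an enzyme that detoxifies methylglyoxal. It had 12 reads in light and 11 in the dark, or 352 and 713 TPB, a ratio of 0.494 (0.200 to 1.24). The interval includes 1, and the site was in category 2 in both libraries, which by common usage is above the transcript's median but below its highest position. Deposited p-values at the site were 0.664 in light and 0.455 in the dark.

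Of the 3 genes of the small RNA machinery, AGO1A/AGO1B and DCL1 were among the 13 member genes with 10 or more reads, and AGO1C had 3 reads. DCL1 (ZS03g0028500), the Dicer-like enzyme that releases miRNAs from their hairpins, is itself a target of miR162. It had 6 reads in light and 5 in the dark, or 176 and 324 TPB, at position 3595 of 1 transcript version and position 3758 of another. The ratio was 0.544 (0.138 to 2.25), and all 4 listed pairs of DCL1 with miR162a (score 2) and miR162b (score 3) had reads. In both versions the cut lay opposite base 11. It was in category 2 in both libraries, with the authors' deposited p-value at 0.516 in light and 0.333 in the dark. AGO1 proteins carry the miRNA and cut its target, and miR168 pairs with AGO1 transcripts. The gene with the symbols AGO1A and AGO1B (ZS04g0673500) had 13 reads in light and 6 in the dark, a ratio of 0.981 (0.348 to 3.15). Its sites were in category 2 in both libraries, with deposited p-values of 0.571 in light and 0.376 in the dark. AGO1C (ZS02g0720000) had 1 read in light and 2 in the dark, a ratio of 0.226 (0.00384 to 4.35), with deposited p-values of 0.927 and 0.848. All 8 listed pairs of miR168 with AGO1 had reads, at the worst listed score, 4. They lie on 6 transcript versions, and versions of a gene share reads. The deposited annotation of these AGO1 genes also names a beta-glucosidase, so their identity is uncertain. In none of these genes did the light and dark values differ beyond counting error.

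The gene DRM2 (ZS03g0018400), which encodes a de novo DNA methyltransferase, is in rice a known target of miR820, a miRNA encoded within DNA transposons. This gene was picked here after its values had been seen. It had 5 reads in light and 2 in the dark, a ratio of 1.13 (0.185 to 11.9), with score 2.5 at 7 sites, 1 in each transcript version, that share these reads. The sites were in category 2 in both libraries, with deposited p-values of 0.960 in light and 0.834 in the dark. Of 16 listed pairs of miR820, 15 (93.8%) had reads, including 7 of 8 with DRM2. Among all listed pairs of less conserved mature miRNAs 9.22% had reads. The 15 are transcript versions of 3 genes, and versions of a gene share reads, so they are not 15 separate observations. The other miR820 genes were ZS02g0490900, with 1 light read, and PBL16 (ZS10g0334700), a kinase gene with 2 dark reads.

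The gene with most reads was ZS02g0157500, which was paired with miR818 and carries a deposited phospholipid scramblase term and no rice name. It had 57 reads in light and 10 in the dark, or 1645 and 648 TPB, at 2 positions 3 bases apart in each of 3 transcript versions. The ratio was 2.54 (1.28 to 5.57). It was the 1 gene of 113 called higher in light, where 2.79% of all 823 genes were called higher. A call needs at least 2-fold and an interval without 1. The call was lost, at a ratio of 1.87, when the libraries were scaled to the summed TPB of sites read in both. The gene gave 17.6% of the light and 6.82% of the dark TPB at sites of less conserved miRNAs.

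The positions of ZS02g0157500 differed in their pairing. At position 1393 of version 01 the miR818a_L+2 variant paired with score 4, and 45 light and 10 dark reads gave 431 and 216 TPB, a ratio of 1.99 (0.990 to 4.44). This position was in category 0 in light and category 2 in the dark, with deposited p-values of 0.0486 and 0.977. At position 1390 both miR818a_L-1R+3 forms paired with score 2, and 12 light reads stood against none in the dark, which is 1.81-fold against a floor of 3 dark reads. The deposited p-value at position 1390 was 0.999 in light. Neither position alone passed the call. Small RNAs from the miR818 precursors, which are not mature miRNAs, had further cuts at 1383, 1429, 1440 and 1553 of the same version. With these the gene had 75 light and 14 dark reads, a ratio of 2.5 (1.40 to 4.78).

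The other category 0 site of miR818 lay in KAN2 (ZS06g0019700), named after an Arabidopsis KANADI factor of organ polarity. It had 4 light reads and none in the dark at position 1276 of version 03, with score 3 and a deposited p-value of 0.0418. The interval starts at 0.299, so no difference was detectable at that depth.

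**Figure D1:**
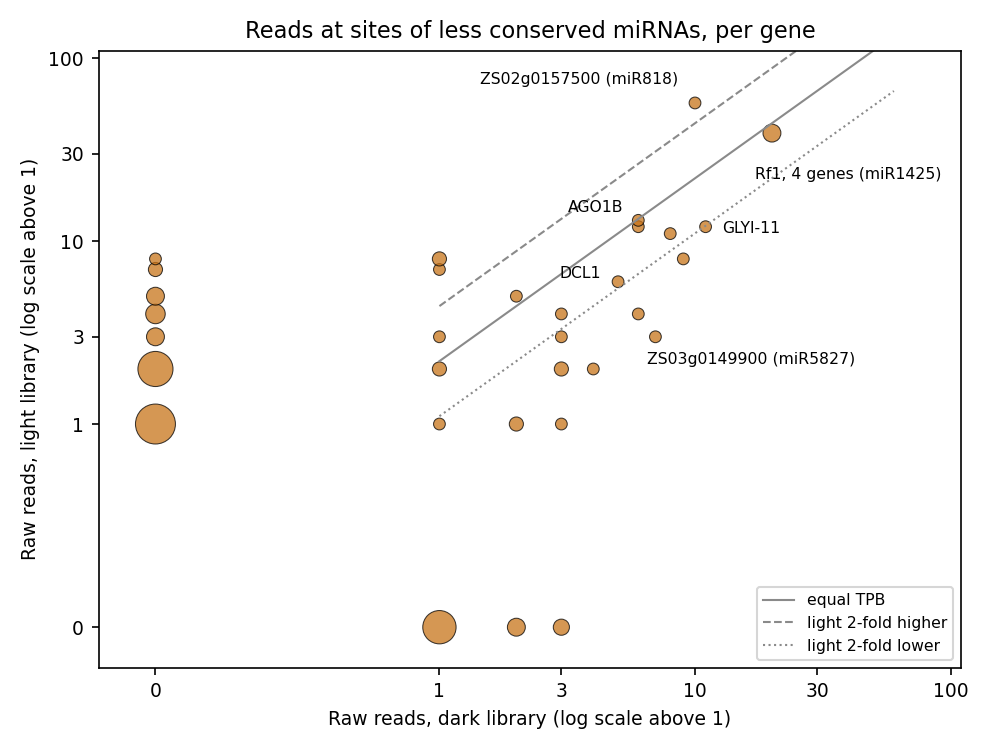
Raw reads per gene at sites of less conserved miRNAs, light library on the y axis and dark library on the x axis, both on a log scale above 1 and linear to 0; a larger bubble stands for more genes at that point, and lines mark equal TPB and 2-fold differences. Most genes have 3 reads or fewer, ZS02g0157500 with 57 light and 10 dark reads lies above the upper line, and the 4 Rf1 copies share 1 point at 39 light and 20 dark reads.

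The 1 gene called lower in light was ZS03g0149900, which carries no name and holds a site of miR5827 at position 297 with score 3. It had 3 reads in light and 7 in the dark, or 88.1 and 454 TPB, a ratio of 0.194 (0.0324 to 0.850). Both libraries placed it in category 2, with deposited p-values of 0.304 in light and 0.183 in the dark. Among all 823 genes 2.31% were called lower, so 1 of 113 is no more than the share of the whole table. Over sites, none of the 258 was called higher, where 1.99% of all 2064 were, and 1 was called lower, where 2.37% were. Scaled to the summed TPB, 0 member genes were called higher, where 0.851% of all genes were, and 7 lower, where 5.35% were. Under that scaling 19 of the 258 sites were called lower, where 5.14% of all sites were. These 19 lay on transcript versions of the 7 genes, and versions of a gene share reads. Scaled to the median ratio, 6 sites were called higher, where 2.86% of all sites were. All 6 were sites of ZS02g0157500, on 3 transcript versions that share reads.

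Other genes with 10 or more reads belonged to miR1871, miR3979 and miR5144, and their intervals all included 1. ZS07g0331800, annotated as similar to a glucosylceramidase, an enzyme of sphingolipid breakdown, had 11 light and 8 dark reads at a miR1871 site (0.623, 0.228 to 1.78). ZS05g0091000, also of miR1871, had 12 light and 6 dark reads that match several places (0.906, 0.315 to 2.94). ZS07g0349300, of miR3979-5p, had 8 light and 9 dark reads (0.403, 0.135 to 1.18).

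GATA21 (ZS02g0130700), a GATA-type transcription factor gene paired with miR5144-3p, had 4 light and 6 dark reads (0.302, 0.0627 to 1.27). All 4 of these genes had score 4 and category 2 in both libraries. The lowest deposited p-value among them was 0.823, at GATA21 in the dark.

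The leading genes of further families had under 10 reads. ZS01g0049700 (miR5504; deposited symbol At2g44920) had 7 light reads and 1 dark read, a ratio of 3.17 (0.407 to 143). ZS05g0164800 (miR1846a-3p; At4g28440) had 3 light reads and 1 dark read, a ratio of 1.36 (0.109 to 71.3). AVP1 (ZS06g0568400; miR5072), a gene for a proton pump of the vacuole driven by pyrophosphate, had 4 light and 3 dark reads, a ratio of 0.604 (0.102 to 4.12). Intervals this wide include both large gains and large losses. ZS02g0315900 (miR5054), annotated as similar to cinnamate 4-monooxygenase of the lignin pathway, had 7 light reads and none in the dark, 1.06-fold against the floor. SCL28 (ZS03g0278100; miR8175), a gene of the GRAS transcription factor class, had 2 light reads and none in the dark.

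**Figure D2:**
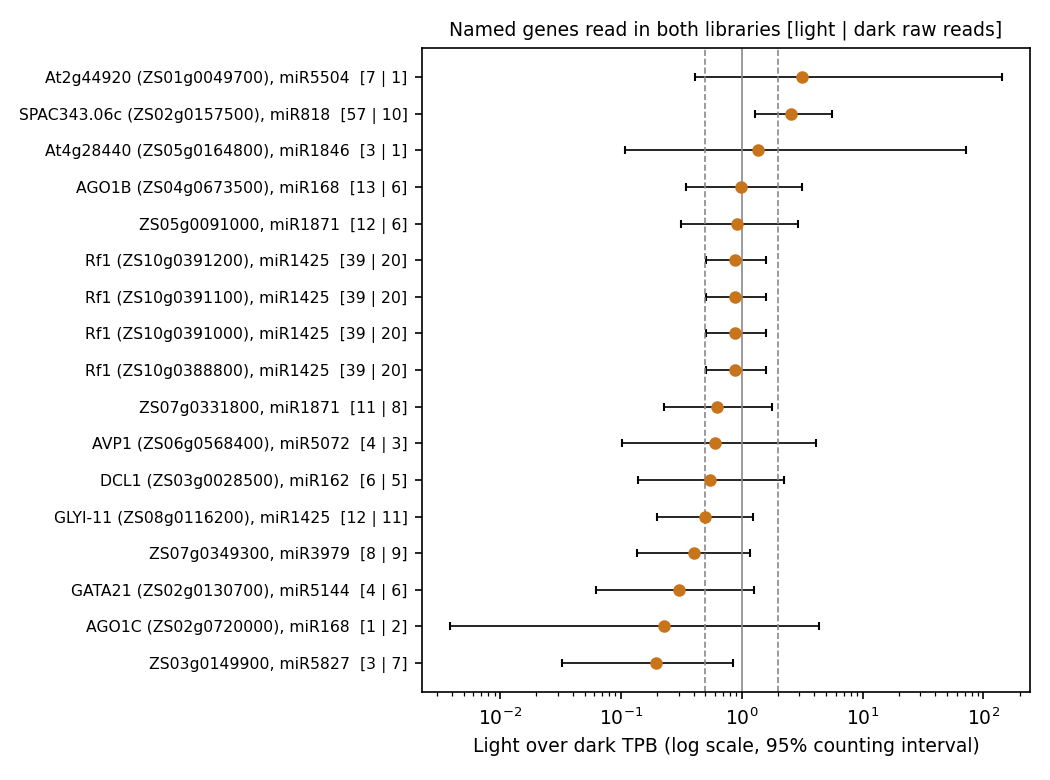
Light over dark TPB on a log axis of named genes, with 95% counting intervals as bars for genes read in both libraries; the solid line marks no difference and the dashed lines 2-fold, and brackets give raw reads in light and dark. The interval of ZS02g0157500 lies above 1 (1.28 to 5.57), that of ZS03g0149900 lies below 1 (0.0324 to 0.850), and those of the other genes cross it.

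Nutrient-linked miRNAs had few reads, and the genes in this paragraph and the next were picked after their values had been seen. In rice miR827 pairs with transcripts of SPX domain membrane proteins, which move phosphate. OsI_17046 (ZS04g0678400) had 3 reads in each library, a ratio of 0.453 (0.0607 to 3.38), and OsI_08463 (ZS02g0563900) had 1 light read. Of 14 listed miR827 pairs 9 had reads, on transcript versions of these 2 genes that share reads within a gene. At the miR398b site of SBP1 (ZS01g0760200), a selenium-binding protein gene, 2 light and 3 dark reads gave 0.302 (0.0252 to 2.64). Sulfate-linked miR395 had 2 light reads in MSBP1, and phosphate-linked miR399j had 1 dark read in ZS01g0722800.

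Some genes of growth and cell wall pathways were listed at 18-nt or foreign-named small RNAs. CYP90A1 copies (ZS12g0043300 and ZS11g0044000), named for a cytochrome P450 of brassinosteroid synthesis, had 5 light reads shared over 8 places at a miR5072 site of score 2.5, and none in the dark. CCR1 (ZS08g0504700), a cinnamoyl-CoA reductase gene of lignin synthesis, had 2 light and 4 dark reads at a miR2916 site. 4CL4 (ZS06g0578700), a ligase gene of the same pathway, had 3 dark reads and none in light at a miR5054 site. Scaled to library totals, counting intervals included 1 for each of these genes. Scaled to the summed TPB, 4CL4 was called lower, where 5.35% of all genes were.

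By words in the deposited descriptions, 15 member genes matched chloroplast or photosystem (78 of all 823 genes), 9 transcription factor (137) and 6 transporter (33). Chromatin (21) and cell wall (33) words matched 5 each. Kinase (40), ribosomal and translation (35) and hormone (62) words matched 4 each. Heat shock (14) and small RNA machinery (4) words matched 3 each, calcium (13) matched 2 and ubiquitin (31) matched 1. Brackets give the matches among all 823 genes. A word does not settle what a gene encodes. Transcription factor words also matched ZS01g0636600, annotated as similar to a 40S ribosomal protein. The lists held 53 member genes, and 38 of the 113 genes had no symbol. None of the 53 was called in either direction, where 2.79% of all genes were called higher and 2.31% lower. Under scaling to the summed TPB 5 of the 53 were called lower, among them GATA21 and GLYI-11, where 5.35% of all genes were.

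Most of the 113 genes had too few reads for any comparison. Under 10 reads were seen in 100 genes (88.5%, against 82.3% of all genes), 3 or fewer in 77 (68.1%, against 66.7%), and a single read in 42 (37.2%, against 38.4%). Reads came from light alone in 60 genes (53.1%), from the dark alone in 24 (21.2%) and from both in 29 (25.7%). Over all 823 genes the shares were 49.8%, 19.2% and 31.0%, so the members' split was near that of the whole table. A site seen in light alone had at most 12 reads, and one seen in the dark alone at most 3. The light library was 2.21 times as deep, and the part of depth in these counts was not tested.

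In the 29 genes read in both libraries 6 ratios were above 1 and 23 below, with a median of 0.623, against 95 above, 160 below and a median of 0.883 in all 255 genes read in both. Of the 29 intervals 27 included 1. A gene with 1 read in each library has a ratio of 0.453. Among genes with under 10 reads the median was 0.528 in 16 member genes and 0.679 in 119 of all genes. With 10 or more reads it was 0.883 in 13 and 0.947 in 136. The 13, like the 29, count the Rf1 copies separately, although these share 1 set of reads. Each copy stands at 0.883, so the median of the 13 is the value of that set. Of the 13 ratios 1 was above 1 and 12 below, against 61 above and 75 below in the 136. Summed over all members TPB was 9351 in light and 9506 in the dark, a ratio of 0.984, and without ZS02g0157500 the ratio was 0.870.

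**Figure D3:**
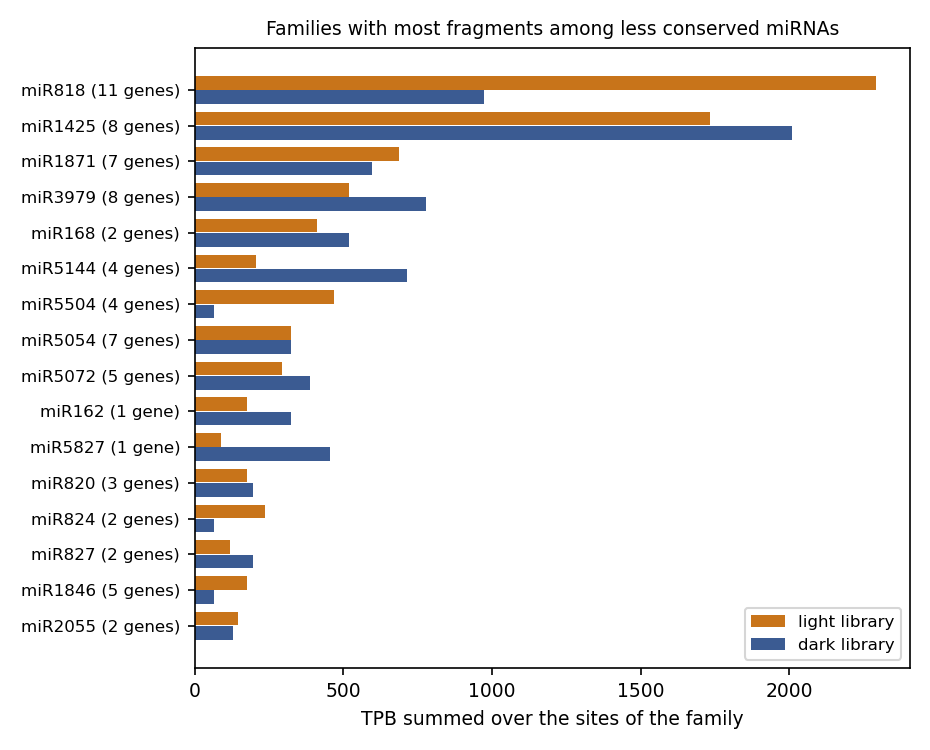
TPB summed per family at sites of less conserved miRNAs, light above dark for each family, bars from 0. Families shown are those with most normalized reads, light and dark added. The miR818 bars stand at 2291 in light and 973 in the dark, mostly from ZS02g0157500, and those of miR1425 at 1733 in light and 2010 in the dark.

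Reads were concentrated in a few families. The miR818 family gave 2291 TPB in light and 973 in the dark, a ratio of 2.36, and miR1425 gave 1733 and 2010, a ratio of 0.862. Of the 45 families 24 had sites in 1 gene each, and only miR818 and miR1425 had a site in category 0. All 258 sites held 1.91% of the light and 2.67% of the dark TPB of all 2064 sites, where the 913 sites of the listed families held 91.1% and 88.6%.

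The sites were less often read in both libraries and worse paired than those of the listed families. Reads in both libraries were found at 70 of 258 member sites (27.1%, Wilson 95% interval 22.1 to 32.9) and at 373 of 913 listed-family sites (40.9%, 37.7 to 44.1). Category 0 in at least 1 library was reached by 8 of 258 (3.10%, 1.58 to 6.0) and 115 of 913 (12.6%, 10.6 to 14.9). Score 4 was given to 138 of 258 (53.5%, 47.4 to 59.5) and 331 of 913 (36.3%, 33.2 to 39.4). 10 or more reads were at 24 member sites (9.30%) and at 220 listed-family sites (24.1%), and a single read was at 31.0% of member and 34.3% of listed-family sites. The 893 sites without a mature miRNA were near the members in 3 of these shares, with 27.9% read in both libraries, 1.79% in category 0 and 9.41% with 10 or more reads, and had score 4 less often, at 35.7%. A deposited p-value of at most 0.05 in at least 1 library was found at 3.10% of member sites and 12.8% of listed-family sites. The lowest deposited p-value was above 0.9 at 136 member sites (52.7%) and 605 listed-family sites (66.3%).

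These intervals are too narrow, because transcript versions and gene copies share reads, and the reads of 214 of the 258 member sites matched more than 1 place. With 1 site kept per gene and pair of light and dark raw read counts, the members had 114 sites and the listed families 455. Positions of a gene with equal counts then count as 1 site. Sites of different genes that share reads still count separately. Score 4 then stood at 55.3% (46.1 to 64.1) in members and 32.7% (28.6 to 37.2) in listed families, and reads in both libraries at 25.4% (18.3 to 34.1) and 40.9% (36.5 to 45.5). For category 0 the intervals overlapped, so a difference was not shown, at 5.26% (2.43 to 11) in members and 11% (8.44 to 14.2) in listed families. The 6 member sites behind the 5.26% still count the Rf1 copies separately, although these share 1 set of reads. The cut lay opposite base 10 in 274 pairs, base 9 in 9 and base 11 in 14, and pairs with reads at other bases were not in the table.

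Few well-paired predictions of these families had reads. Over every listed pair, with or without reads, 288 of 3122 pairs of less conserved mature miRNAs had reads (9.22%, 8.26 to 10.3), against 1098 of 3168 in the listed families (34.7%, 33.0 to 36.3). At a score of 2 or less, 15 of 325 had reads (4.62%, 2.82 to 7.47), against 239 of 363 (65.8%, 60.8 to 70.5). At score 4 the shares were 154 of 1613 (9.55%, 8.21 to 11.1) and 395 of 1735 (22.8%, 20.9 to 24.8). Among less conserved miRNAs the share did not run steadily with the score, and its highest value was at score 2.5, with 36 of 174 (20.7%, 15.3 to 27.3). Transcript versions count as separate pairs here, so these intervals are too narrow as well. At the perfect score of 0 none of 52 pairs had reads, which allows a share of up to 5.77% as 3 counts of 52 (Wilson upper limit 6.88%), against 9 of 30 in the listed families.

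**Figure D4:**
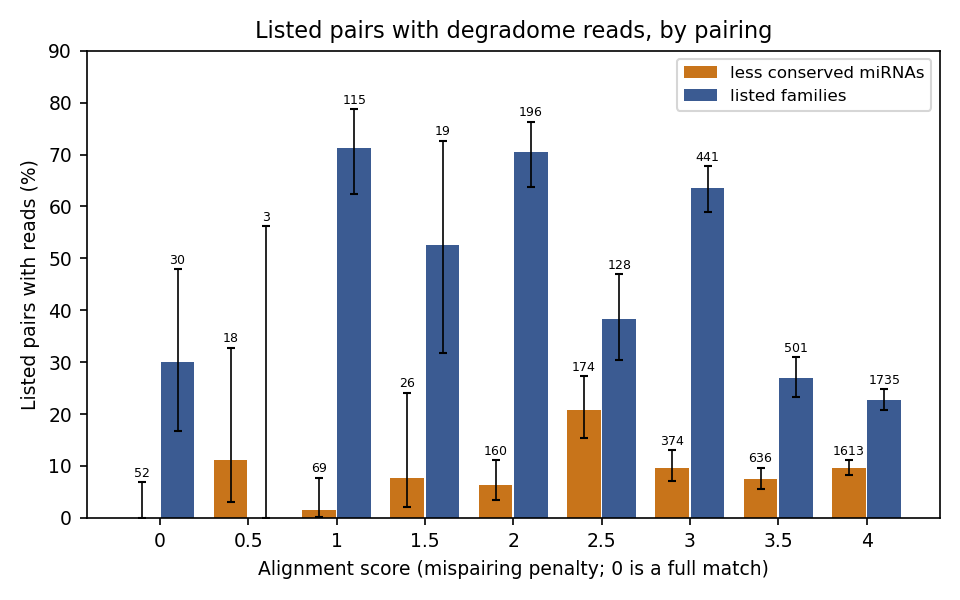
Share of listed small RNA and transcript pairs with degradome reads, by alignment score (0 is perfect pairing), with Wilson 95% intervals as bars, less conserved mature miRNAs left of the listed families at each score. Less conserved miRNAs reach 9.55% at score 4, against 22.8% in the listed families, and at a score of 2 or less 4.62% against 65.8%.

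The 325 well-paired predictions came from 39 families, unevenly. Of the pairs with a score of 2 or less miR818 gave 143, of which 12 had reads, and miR5831, miR5072 and miR1432 gave 23, 17 and 13 pairs with no reads. Among small RNAs of 20 to 22 nt alone, reads were found at 2 of 110 well-paired predictions (1.82%, 0.500 to 6.39), against 221 of 335 in the listed families (66.0%, 60.7 to 70.8). The 9 widely shared families had reads at 36 of 229 pairs (15.7%, 11.6 to 21) and the remaining families at 252 of 2893 (8.71%, 7.74 to 9.79). Sites with a score of 2 or less numbered 13, in 6 genes. These genes were ZS02g0157500, DCL1, ZS08g0473600 (miR812n, score 1, 1 light read), ZS01g0710800 (miR818, score 0.5, 1 light read), ZS03g0630600 (miR818) and STAR1 (ZS06g0630600; miR818), a name given in rice to part of an aluminium tolerance transporter. Of 93 less conserved families with a listed pair, 45 had reads and 48 had none, whereas all 17 listed families with mature pairs had reads.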

How the data were processed

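Each line of the deposited table joins 1 small RNA to 1 transcript. Raw read counts per cleavage position are as the authors deposited them. The authors' normalized reads are a signal, raw reads divided by matching places, and TPB is a signal the authors made from them with 1 constant per library, whose inverse gave the library total. The authors also deposited a p-value per pair and library, a category, and the alignment score, a mispairing penalty per the file headers. The log2 fold change that the authors deposited runs dark over light, opposite to the ratios here. Headers naming a 1 h dark library were read as the dark library, since its TPB column is headed D_5d. The sources used here do not name the aligner, the target finder or the annotation.

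Pairs with reads were collapsed to sites. Genes sum TPB over versions and positions, with raw reads from the version with most. Ratios carry exact Clopper-Pearson 95% intervals, and shares Wilson intervals (Python 3.11.15, pandas 2.3.3, scipy 1.17.1, statsmodels 0.14.6). A library without reads was set at a floor of 3 reads for a call. Without molecular identifiers PCR copies count as separate reads, so intervals and floors cover counting error only. The counting code was tested on simulated data. Named genes had a site in category 0 or 1, 10 reads at a site, a call or a place in small RNA machinery, or led 1 of the 10 families with most genes. Others are said to be picked later. The members and lists were chosen with earlier results of these data known. Per-sample values in 20 columns of further sheets were not used. Deposited symbols, some of them from other species, name the genes, and positions count along the transcript.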

Additional observations from a re-analysis of the deposited data

How the results depend on the processing

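No paired analysis was possible because each condition has 1 library. The calls at sites and genes rested on few reads and moved with the scaling. With libraries scaled to the median ratio of sites, a factor of 0.883 or -0.18 on the log2 scale, 6 member sites were called higher (2.86% of all sites were) and the median log2 ratio of sites read in both libraries was -0.77, against -0.95 with library totals. With scaling to the summed TPB of sites read in both libraries, a factor of 1.36 or 0.44 on the log2 scale, 19 member sites and 7 genes were called lower (5.14% of all sites and 5.35% of all genes were), no gene was called higher (0.851% of all genes were) and the median was -1.39. The 19 sites lay on transcript versions of the 7 genes, and versions of a gene share reads. GATA21 (0.223), ZS07g0349300 (0.297) and GLYI-11 (0.364) were then among the genes called lower, and ZS02g0157500 stood at 1.87. Raw reads over library totals, a call without the floor, and a 1.5-fold threshold each called 3 member sites higher, where 2.13%, 2.52% and 2.91% of all sites were. All of these, and the 6 above, were sites of ZS02g0157500 on transcript versions that share reads. With at least 10 reads, 87.5% of 24 sites were read in both libraries and 29.2% were in category 0. With a score of at most 3, 6.67% of 75 sites were in category 0 and 0 genes were called higher (4.04% of all genes with such a site were). With a deposited p-value of at most 0.05, 8 sites of 6 genes remained, with 0 sites called lower and 0 genes called in either direction (of all such sites 6.43% were lower, of all such genes 15.2% were higher and 7.58% lower). Fewer sites and genes entered these last 3 settings. ZS03g0149900 was called lower under all 3 scalings (0.194, 0.220 and 0.143). Leaving out miR157, an alternative chosen after seeing the data, changed no call. Of 60 values of named genes under these scalings and raw reads, 56 kept their call.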
